A study of Mus musculus with 18 samples.

Results

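The enzymes and carriers that burn fatty acids in mouse liver were followed as a list of 37 genes of mitochondrial and peroxisomal fatty acid oxidation. A gene was taken when its symbol was the only one given for a probe set, and the probe set with the highest mean over the 18 arrays stood for the gene. Of the 37 genes, 36 had such a probe set, and all 36 were among the 13228 genes tested. Ucp2, an inner membrane carrier, was not analysed here.

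Livers came from wild-type CD1 mice, an outbred strain, in 6 groups of 3 Affymetrix expression arrays. In the prevention model, mice received injections of vehicle or of CMPF (6 mg/kg per day), a furan fatty acid metabolite found in blood, for 1 week. They then ate a high-fat diet (HFD, 60% of its energy as fat) for 4 weeks per the sample labels, and a chow group with control treatment stood beside them. In the reversal model, HFD was fed for 6 weeks before 2 weeks of vehicle or CMPF at the same dose, again with a chow group. No group carried a transgene or a deleted allele. The sex and age of the mice are not given in the labels used here. The comparisons asked how HFD changed liver expression in each model and whether CMPF changed it on HFD.

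Long-chain fatty acids enter mitochondria as carnitine esters, made by CPT1A at the outer membrane, carried by SLC25A20 and turned back into acyl-CoA by CPT2. Each turn of the beta-oxidation spiral then uses an acyl-CoA dehydrogenase, a hydratase, a hydroxyacyl-CoA dehydrogenase and a thiolase, and the electrons pass through the electron transfer flavoprotein to the respiratory chain. Peroxisomes shorten very long chains and branched chains with enzymes of their own. In liver the acetyl-CoA also feeds ketone bodies, and many of these genes are targets of the fatty acid receptor PPAR alpha.

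Values are log2 signals, so a difference of 1 is a 2-fold change, and levels were compared between arrays for 1 probe set and never between genes. Adjusted p is from limma with Benjamini-Hochberg correction over all 13228 genes, and a gene is said to have changed when it was under 0.05. Replicates 2 and 3 of the prevention CMPF group had 0 genes more than 2-fold apart, against at least 115 in every other pair of arrays, and were counted as 1 sample (n = 2). RNA quality was read from the Gapdh and beta-actin control probe sets, as the 3' signal minus the 5' signal, an index that shorter RNA raises. On the 3 prevention chow arrays the index averaged 1.43 ± 0.512 (SD), and on the 3 HFD arrays of that model 2.84 ± 0.303 (SD). That difference had an exact permutation p of 0.1, two-sided, the smallest that 3 arrays against 3 allow. In the reversal model the index was 3.15 ± 0.566 in chow, 2.62 ± 0.969 in HFD and 2.63 ± 0.957 in CMPF (SD, n = 3 each). Reversal chow replicate 2 stood apart, with a median correlation of 0.9701 with the other arrays of its model, against 0.9849 to 0.9899 for those arrays. All 9 hepatocyte markers were above the filter. Of the 3 measured fat cell genes, Adipoq and Lep lay below it and Retn, at a mean of 5.04, lay above it. In bulk liver, fewer cells of a type and less RNA per cell cannot be told apart, and the labels do not say whether the arrays of a group were separate animals, so each p measures the spread between arrays.

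In the prevention model, HFD lowered 8 of the 36 genes and raised 0. The 8 came from several roles. They were Cpt1a and Crot of the acyl carnitine enzymes, both subunits of the trifunctional protein (Hadha and Hadhb), and Etfa and Etfdh of electron transfer. The others were Decr2 for unsaturated chains and the peroxisomal Ehhadh. None was an acyl-CoA dehydrogenase, a ketone body enzyme or a thioesterase. The falls ran from 1.80-fold (Hadha) to 3.21-fold (Decr2). Of all genes tested, 5.57% changed, 3.83% lower and 1.74% higher. At an unadjusted p under 0.05, 16 of the 36 were lower and 2 higher, while 24.8% of all genes changed in either direction at that level, and the median change was -0.34 against 0.00 over all genes. All 3 HFD arrays lay below all 3 chow arrays for 23 genes and above them for 2, against 17.2% and 12% of all genes.

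**Figure D1:**
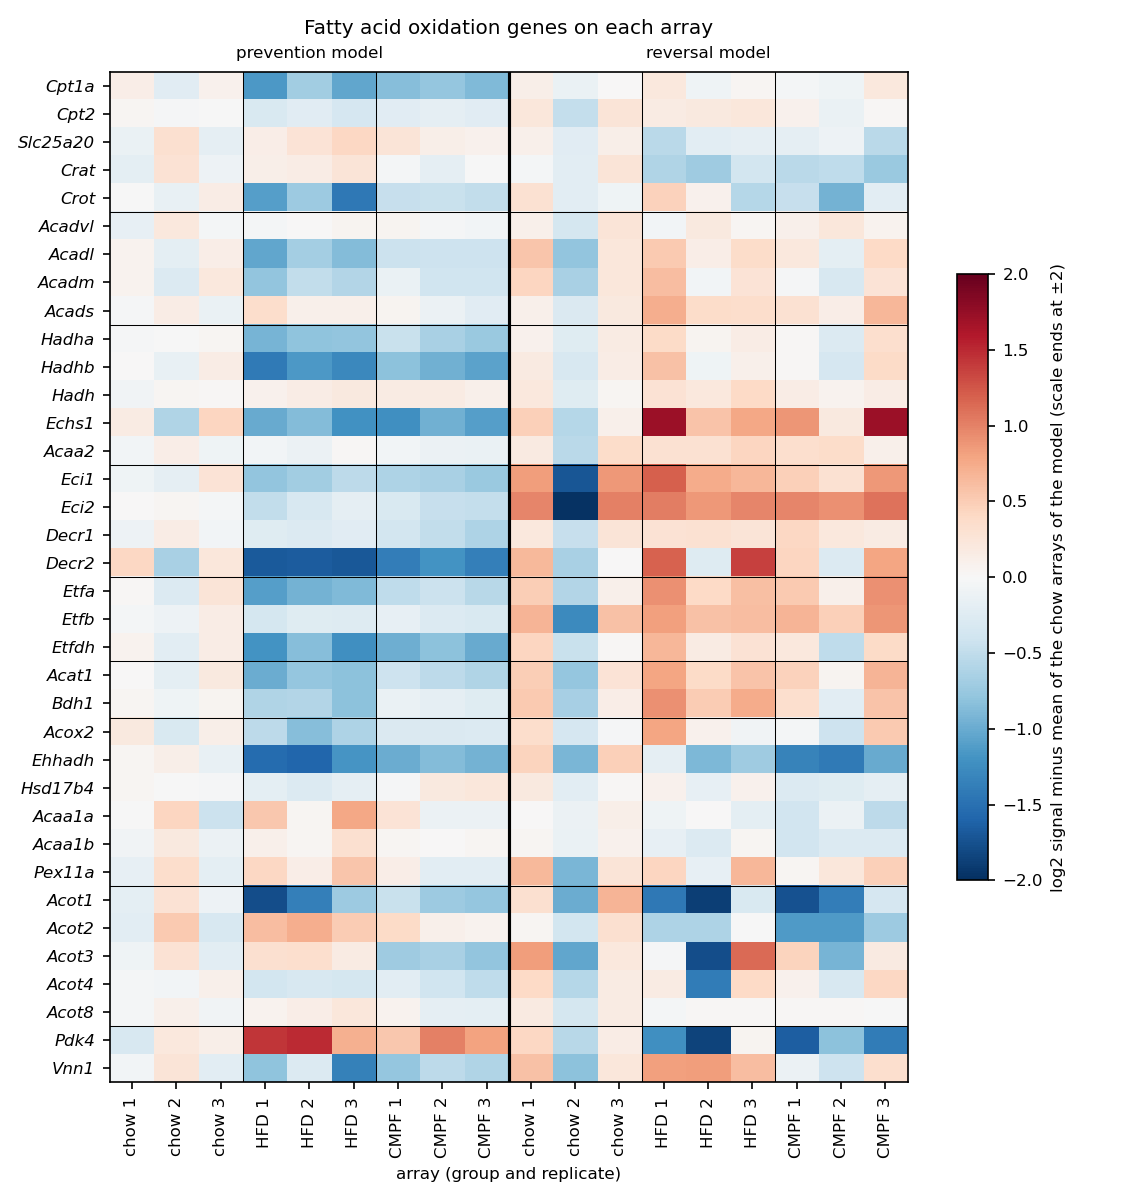
Log2 signal of the 36 genes (rows, in order of role, with lines between roles) on each of the 18 arrays (columns), minus the mean of the chow arrays of the same model. Blue is lower and red is higher, and the colours end at 2 in either direction. The prevention HFD and CMPF columns are mostly blue, and the reversal HFD columns are mostly pale red. The reversal CMPF columns have medians of 0.06, -0.20 and 0.25. Reversal chow replicate 2 is lower than the other chow arrays and lowers the chow mean of that model. Without it the median HFD effect in reversal was -0.04.

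Cpt1a makes the carnitine ester that commits a long chain to the mitochondrion, and had the smallest p of the 36 in this comparison. Its log2 signal was 11.57, 11.21 and 11.52 on the prevention chow arrays and 10.29, 10.74 and 10.40 on HFD. All 3 HFD arrays lay below all chow arrays, a fall of 0.96 ± 0.140 (log2, SE), or 1.94-fold, with an adjusted p of 0.00931. With CMPF the arrays read 10.58, 10.66 and 10.55, inside the range of the HFD arrays. The stretch of 250 bases before the Cpt1a start in RefSeq (GRCm38.p6, chr19:3323051-3323300, plus strand) is shown because it holds 1 of the few half-sites for nuclear receptors in these promoters, TGACCT, in capitals. It lies 89 bases before the start and is the reverse complement of AGGTCA.
Cpt1a: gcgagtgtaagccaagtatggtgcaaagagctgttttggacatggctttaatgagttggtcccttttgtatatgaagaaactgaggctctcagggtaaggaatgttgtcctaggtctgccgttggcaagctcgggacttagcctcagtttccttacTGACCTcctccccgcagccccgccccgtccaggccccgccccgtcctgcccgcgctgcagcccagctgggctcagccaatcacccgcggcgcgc

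A promoter window was found in the RefSeq table for 30 of the 36 genes. AGGTCA, on either strand in the 250 bases before a start, was in 5 of the 30 (16.7%: Acadm, Acadvl, Acot4, Cpt1a and Echs1), and in 15.8% of all 27025 genes in the table. The direct repeat AGGTCANAGGTCA was in 0 of the 30 and in 0.0407% of all genes. The GC box GGGCGG was in 17 of the 30 (56.7%) and in 35.4% of all genes, and the CCAAT box in 17 (56.7%) and in 37.5%. These matches describe the letters of the window only and were not tested as binding sites.

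Of the other genes of the carnitine shuttle, Crot, the peroxisomal carnitine octanoyltransferase, also fell in the prevention model. Its chow arrays read 12.46, 12.32 and 12.62 and its HFD arrays 11.37, 11.74 and 11.04, with no overlap, a change of -1.08 ± 0.253 (log2, SE; adjusted p = 0.0298). Cpt2, which releases acyl-CoA inside the mitochondrion, read 10.77, 10.71 and 10.72 on chow and 10.43, 10.51 and 10.39 on HFD. The Cpt2 groups did not overlap, but the change of -0.29 ± 0.153 (SE) had an adjusted p of 0.262. The carrier Slc25a20 was 0.28 and the acetyltransferase Crat 0.18 (log2) above chow, with adjusted p of 0.321 and 0.493.

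The genes of the trifunctional protein, whose alpha subunit carries the long-chain hydratase and dehydrogenase and whose beta subunit carries the thiolase, fell together. Hadhb read 11.92, 11.77 and 12.06 on prevention chow, 10.50, 10.77 and 10.62 on HFD, and 11.10, 10.95 and 10.85 with CMPF. Hadha read 9.70, 9.72 and 9.76 on chow, 8.79, 8.92 and 8.94 on HFD, and 9.28, 9.08 and 8.98 with CMPF. In both genes the HFD arrays lay below every chow array and the CMPF arrays lay between the groups. HFD changed Hadhb by -1.29 ± 0.20 (log2, SE; 2.44-fold lower, adjusted p = 0.0113) and Hadha by -0.85 ± 0.151 (adjusted p = 0.0149). The genes lie head to head on chromosome 5, with 272 bases between their starts (RefSeq, GRCm38.p6). The Hadhb promoter (chr5:30155003-30155252, plus strand) is shown because it is nearly the whole stretch between the 2 genes that fell together. Capitals mark 2 GC boxes, and the window has no AGGTCA on either strand.
Hadhb: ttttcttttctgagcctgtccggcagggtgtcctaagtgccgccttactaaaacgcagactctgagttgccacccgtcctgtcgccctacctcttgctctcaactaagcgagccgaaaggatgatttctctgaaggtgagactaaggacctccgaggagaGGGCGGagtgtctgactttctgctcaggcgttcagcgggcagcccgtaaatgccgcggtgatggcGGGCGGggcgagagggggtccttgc

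The remaining mitochondrial enzymes of the spiral did not pass the threshold in the prevention model. Of the acyl-CoA dehydrogenases, Acadl (long chain) was at -0.87 and Acadm (medium chain) at -0.62 (log2, HFD minus chow), with adjusted p of 0.0666 and 0.152. Acadvl (very long chain) was at 0.01 and Acads (short chain) at 0.19. The short-chain hydratase Echs1 was at -1.03 ± 0.392 (SE, adjusted p = 0.126), and its chow arrays spread from 10.01 to 11.04. The thiolase Acaa2 was at -0.06 on the probe set used. Hadh, the dehydrogenase for short chains, read 13.21, 13.32 and 13.29 on chow and 13.36, 13.42 and 13.47 on HFD. Its HFD arrays all lay above chow, but by only 0.14 ± 0.107 (SE, adjusted p = 0.452).

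Of the 3 genes of electron transfer from the dehydrogenases, 2 fell in the prevention HFD livers. Etfa, a subunit of the flavoprotein, read 11.90, 11.61 and 12.13 on chow and 10.78, 10.93 and 10.99 on HFD. Etfdh, the dehydrogenase that hands the electrons to ubiquinone, read 11.45, 11.16 and 11.52 on chow and 10.18, 10.53 and 10.15 on HFD. Neither gene had an HFD array within the range of chow. The changes were -0.98 ± 0.250 for Etfa (SE, adjusted p = 0.039) and -1.09 ± 0.241 for Etfdh (adjusted p = 0.0262). The partner subunit Etfb was at -0.28, with an adjusted p of 0.671.

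Decr2, a peroxisomal reductase that removes double bonds, had the greatest fall of the 36 genes. It read 10.09, 9.02 and 9.90 on chow and 7.99, 8.01 and 7.97 on HFD, with 8.28, 8.47 and 8.30 with CMPF. The HFD arrays agreed closely while chow replicate 2 lay below the other chow arrays. The change was -1.68 ± 0.423 (log2, SE; adjusted p = 0.0369). The other auxiliary enzymes for unsaturated chains, Eci1, Eci2 and the mitochondrial Decr1, were at -0.67, -0.33 and -0.25, with adjusted p from 0.342 to 0.746. The ketone body genes Acat1 and Bdh1 were at -0.86 and -0.67, with adjusted p of 0.0666 and 0.117.

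Of the 6 genes grouped here as peroxisomal oxidation (Acox2, Ehhadh, Hsd17b4, Acaa1a, Acaa1b and Pex11a), Ehhadh was the 1 that fell, and 3 of the 6 were below chow. The peroxisomal Decr2 and Crot, grouped above by other roles, also fell. Ehhadh, the bifunctional hydratase and dehydrogenase of the peroxisome and a well-known PPAR alpha target, read 12.65, 12.73 and 12.46 on chow and 11.07, 11.02 and 11.44 on HFD. Every HFD array was at least a full log2 unit below every chow array. The change was -1.43 ± 0.299 (SE, 2.70-fold lower, adjusted p = 0.0218). Acox2, the branched-chain oxidase, was at -0.66 (adjusted p = 0.137), and the thiolase genes Acaa1a and Acaa1b were at 0.45 and 0.15. The Ehhadh promoter (RefSeq, GRCm38.p6, chr16:21787835-21788084, minus strand) is shown because the gene also passed for CMPF on HFD against chow in the reversal model. That call held in 1 of 6 fits with 1 array left out. Capitals mark 2 GC boxes and 1 CCAAT box, and the window has no AGGTCA.
Ehhadh: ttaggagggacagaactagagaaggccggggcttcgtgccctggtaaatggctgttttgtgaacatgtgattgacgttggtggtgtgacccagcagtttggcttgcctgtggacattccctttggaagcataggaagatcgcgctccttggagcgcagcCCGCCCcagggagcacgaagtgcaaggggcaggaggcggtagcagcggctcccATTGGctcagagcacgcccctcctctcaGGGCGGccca

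Not every gene of the list was lower. Pdk4, the kinase that shuts pyruvate dehydrogenase and so spares glucose when fat is burned, read 5.65, 6.18 and 6.09 on prevention chow and 7.41, 7.47 and 6.69 on HFD. All HFD arrays were above chow, with a change of 1.22 ± 0.405 (SE) that had an adjusted p of 0.0881. Acot1, a cytosolic acyl-CoA thioesterase, read 9.93, 10.41 and 10.02 on chow and 8.34, 8.76 and 9.39 on HFD, a change of -1.29 ± 0.478 (adjusted p = 0.120). Vnn1, the pantetheinase, read 11.36, 11.68 and 11.21 on chow and 10.61, 11.14 and 10.06 on HFD, a change of -0.82 ± 0.325 (adjusted p = 0.141). The Acot1 and Vnn1 groups did not overlap either. Acot1, Acot2, Acot3 and Acot4 start within 64.3 kb of each other on chromosome 12, yet their changes were -1.29, 0.61, 0.28 and -0.35. Acot2, the mitochondrial thioesterase, read 8.52, 9.25 and 8.41 on chow and 9.34, 9.46 and 9.23 on HFD, which overlapped (adjusted p = 0.132).

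**Figure D2:**
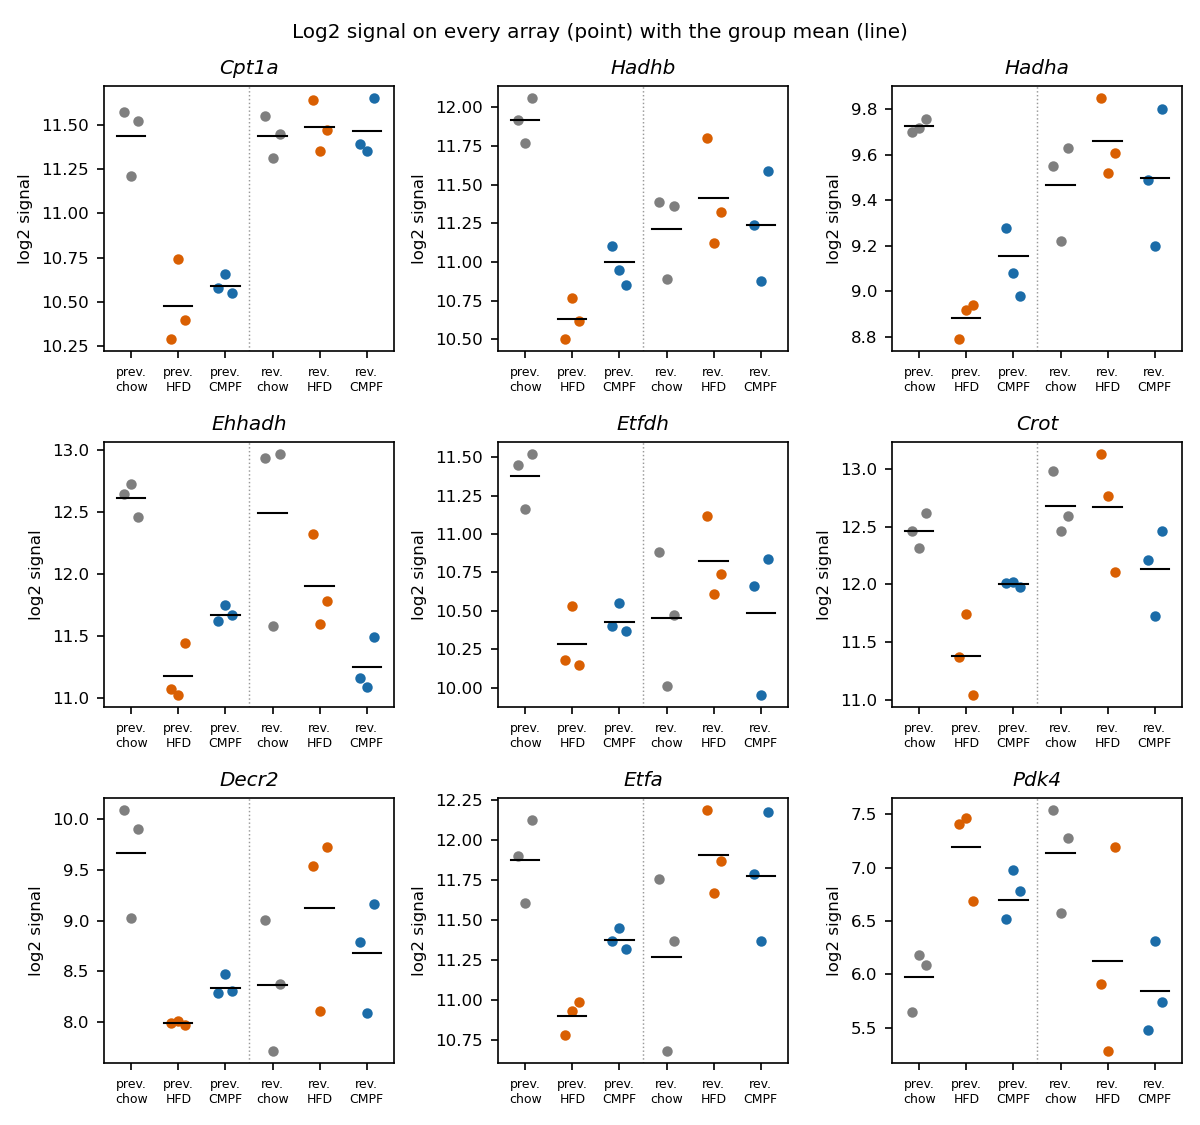
Log2 signal on each array (points) with the group mean (lines) for the 8 genes that fell with HFD in the prevention model and for Pdk4, in the 6 groups; each panel has its own scale. In the 8 genes the prevention HFD points lie below all prevention chow points, while the reversal HFD points overlap reversal chow.

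The RNA quality index and the mean signals of several cell type marker lists also moved between prevention chow and HFD. The 2 prevention chow arrays of lowest index, replicates 1 and 3, were at 1.33 and 0.968, against 2.67 to 3.19 on the HFD arrays. With the index as a covariate, 0 of the 36 genes passed in limma and 8 had an unadjusted p under 0.05. Without the covariate 24.8% of all genes were at that level. The share with it is not given here, so the 8 cannot be set against all genes. The median change with the index as a covariate was -0.14, with 24 of 36 below 0 as before. In that fit Cpt1a was at -0.71 and Hadhb at -0.85 (adjusted p = 0.0715 for each), Ehhadh at -1.12 (0.226), and Decr2 at -0.80 and Etfa at -0.46 (0.414 and 0.425). Another fit left out prevention chow replicates 1 and 3, a choice made after seeing the data. It kept 1 chow array, assumed to vary like the other groups. Of the 8 genes that fell, Ehhadh was then at -1.55, further from 0 than with all chow arrays, and the others were nearer to 0. Cpt1a was at -0.73, Crot at -0.94, Hadha at -0.84, Hadhb at -1.14, Etfa at -0.71, Etfdh at -0.88 and Decr2 at -1.03. With 1 chow array the standard errors grew, so whether a gene passed in this fit says nothing about stability. Leaving out 1 array at a time gave 0 called genes without chow replicate 1 or without chow replicate 3, 9 without chow replicate 2, and 1, 3 and 4 without HFD replicate 1, 2 or 3. The mean signal over the 9 hepatocyte markers was 13.25 to 13.38 on prevention chow and 13.02 to 13.15 on HFD. The 8 stellate cell markers were at 7.70 to 7.82 on chow and 7.94 to 8.24 on HFD, the 6 endothelial markers at 6.31 to 6.88 and 6.94 to 7.07, and the 2 measured markers of exocrine pancreas at 7.08 to 8.54 and 6.57 to 7.06. The 4 measured cholangiocyte markers were at 4.29 to 4.42 on chow and 4.48 to 4.54 on HFD. None of these ranges of list means overlapped between the groups, while those of the Kupffer cell, lymphocyte, fat cell and skeletal muscle markers did. Taken singly in limma, 0 of the tested hepatocyte, stellate cell, cholangiocyte and pancreas markers passed. Of the endothelial markers 1 passed, Stab2 at 0.52 (adjusted p = 0.049). Genes of 1 list also went both ways, with Cps1 at -0.31 and Ttr at 0.20, and Krt19 at 0.37 and Epcam at -0.12. The part of RNA quality and of cell makeup in the falls was not tested beyond these values.

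Other probe sets of the same genes gave smaller, greater or opposite changes in several cases. Of 17 genes with more than 1 probe set above the filter, 12 had all probe sets on the same side of 0 for HFD in the prevention model. For CMPF against vehicle on HFD, 9 of the 17 did in prevention and 12 in reversal. For CMPF on HFD against chow, 10 did in prevention and 9 in reversal. The values that follow are for HFD against chow in the prevention model. Cpt1a was at -0.96 on the probe set used and at -0.30 and -0.23 on the others, for which adjusted p was 0.180 and 0.204. Hadhb was at -1.29 on the probe set used, at -0.48 on another (adjusted p = 0.0193) and at 0.66 on a dimmer one (0.284). With all probe sets of a gene averaged, Hadhb was at -0.37 and no longer passed. The other probe sets of Acaa2 were at -0.48 and, on the dimmest, at -2.26 (adjusted p = 0.0694 and 0.063). Hsd17b4, the peroxisomal D-bifunctional enzyme, was at -0.22 on the probe set used and at -1.04 on the other (adjusted p = 0.0216). For Acot2 the probe sets went opposite ways, 0.61 on the one used and -0.96 on a dim one (adjusted p = 0.0101), and both other probe sets of Acat1 fell, by 0.59 and 0.70 on the log2 scale. When all 59 probe sets of these genes were fitted among 22640, 13 were lower and 0 higher at an adjusted p under 0.05, against 5.12% and 1.74% of all probe sets. Hadha, Ehhadh, Decr2, Etfa and Acot1 were measured by 1 probe set each.

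**Figure D3:**
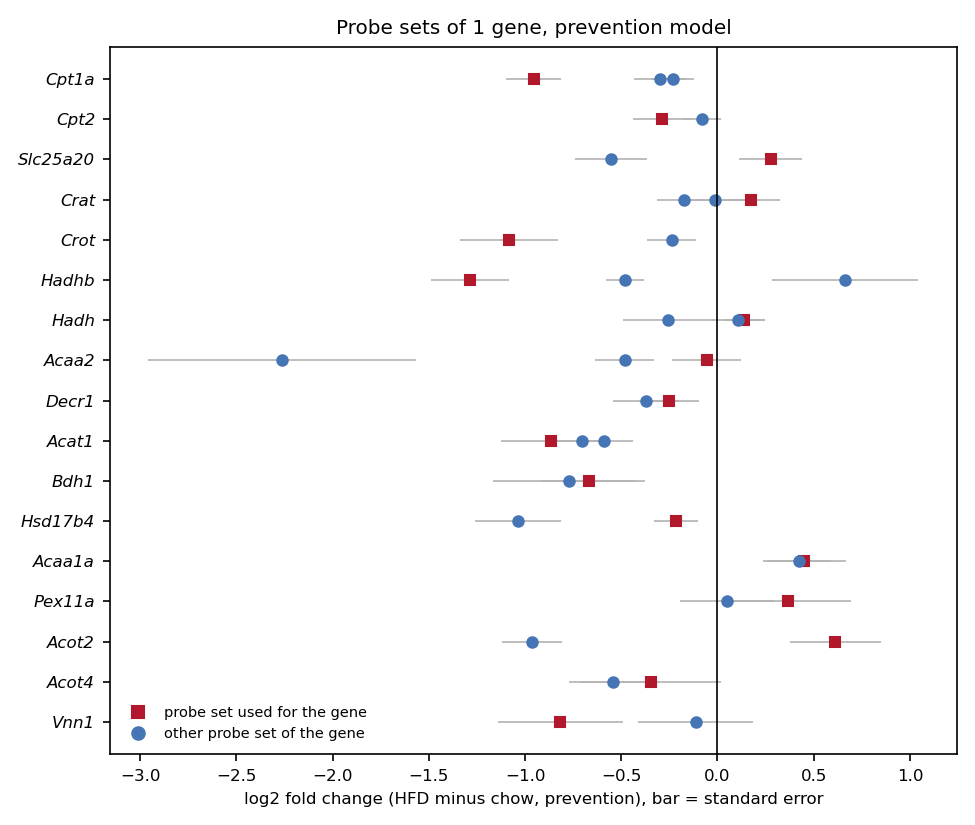
Log2 change with HFD in the prevention model (x axis, HFD minus chow) with its SE for each probe set of the 17 genes that had more than 1 above the filter. Squares are the probe sets used for the gene and circles the others. The circles of Cpt1a lie nearer to 0 than its square, and Hadhb, Slc25a20 and Acot2 have probe sets on both sides of 0.

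In the reversal model, after the longer HFD, 0 of the 36 genes passed in limma (2.45% of all genes did, 2.17% higher and 0.28% lower), and 10 had an unadjusted p under 0.05, 7 higher and 3 lower, against 22.4% of all genes. Here 25 of the 36 genes were above chow and the median change was 0.24, against 0.03 over all genes. HFD arrays lay above all chow arrays for 4 genes (Acads, Hadh, Echs1 and Vnn1) and below for 1 (Crat), against 14.7% and 8.59% of all genes. Cpt1a read 11.55, 11.31 and 11.45 on chow and 11.64, 11.35 and 11.47 on HFD. The Cpt1a groups overlapped, with a change of 0.05 (95% interval -0.25 to 0.35).

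Crat, which makes acetylcarnitine and so buffers acetyl-CoA, had the smallest p. Its reversal chow arrays read 9.17, 9.01 and 9.47 and its HFD arrays 8.62, 8.51 and 8.85, a change of -0.55 ± 0.147 (log2, SE; adjusted p = 0.0612). Acads read 9.97, 9.58 and 10.07 on chow and 10.60, 10.24 and 10.23 on HFD, a change of 0.49 ± 0.167 (adjusted p = 0.121). Bdh1, which interconverts the ketone bodies acetoacetate and hydroxybutyrate, read 11.83, 10.65 and 11.45 on chow and 12.22, 11.81 and 12.05 on HFD, a change of 0.72 ± 0.247 (adjusted p = 0.122). Chow replicate 2 was the lowest of the 6 arrays for Bdh1 and for Acads. Hadh read 13.42, 12.97 and 13.26 on chow and 13.51, 13.42 and 13.61 on HFD, a change of 0.30 ± 0.107 (adjusted p = 0.132).

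Ehhadh read 12.94, 11.58 and 12.97 on reversal chow and 12.32, 11.60 and 11.78 on HFD. Chow replicate 2 lay below every HFD array while the other chow arrays lay above them, and the change was -0.60 ± 0.300 (SE, adjusted p = 0.251). Pdk4 read 7.54, 6.58 and 7.28 on chow and 5.91, 5.28 and 7.19 on HFD, a change of -1.01 ± 0.405 (adjusted p = 0.171). Acot1 read 10.17, 8.85 and 10.53 on chow and 8.42, 7.96 and 9.54 on HFD, a change of -1.21 ± 0.478 (adjusted p = 0.166). In each of these 3 genes the groups overlapped. Vnn1 read 11.44, 10.02 and 11.08 on chow and 11.66, 11.68 and 11.46 on HFD, a change of 0.76 ± 0.325 (adjusted p = 0.194). Hadhb read 11.39, 10.89 and 11.36 on chow and 11.80, 11.12 and 11.32 on HFD, and Hadha 9.55, 9.22 and 9.63 on chow and 9.85, 9.52 and 9.61 on HFD. Both subunits were at 0.20 above chow, with overlapping arrays. Cpt2 read 11.05, 10.34 and 11.07 on chow and 10.99, 11.01 and 11.04 on HFD.

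These reversal values depended on the chow array that stood apart. Over the 36 genes, reversal chow replicate 2 had a median of -0.52 relative to the chow mean, against 0.34 and 0.18 for replicates 1 and 3. Eci1, an isomerase of unsaturated chains, read 8.95 there and 11.51 and 11.54 on the other chow arrays. Eci2 read 8.52 against 11.46 and 11.49, and Etfb 10.09 against 12.04 and 11.95. Without this array the median HFD effect was -0.04, with 16 genes above and 20 below chow. Ehhadh then fell, by 1.06 on the log2 scale (adjusted p = 0.0244), the only one of the 36 to pass, and Crat was at -0.66 (0.0665). The 2 reversal arrays of lowest index, HFD replicate 1 (1.55) and CMPF replicate 3 (1.66), also had the highest Echs1 signals of the model, 11.15 and 11.14. With the index as a covariate, Echs1 was at 0.63 ± 0.170 (log2, SE) for HFD in reversal and at -0.007 ± 0.206 in prevention. The difference of its HFD effect between the models was then 0.64 ± 0.288, against 2.05 ± 0.554 without the covariate. The part of RNA quality in Echs1 was not tested beyond these values.

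**Figure D4:**
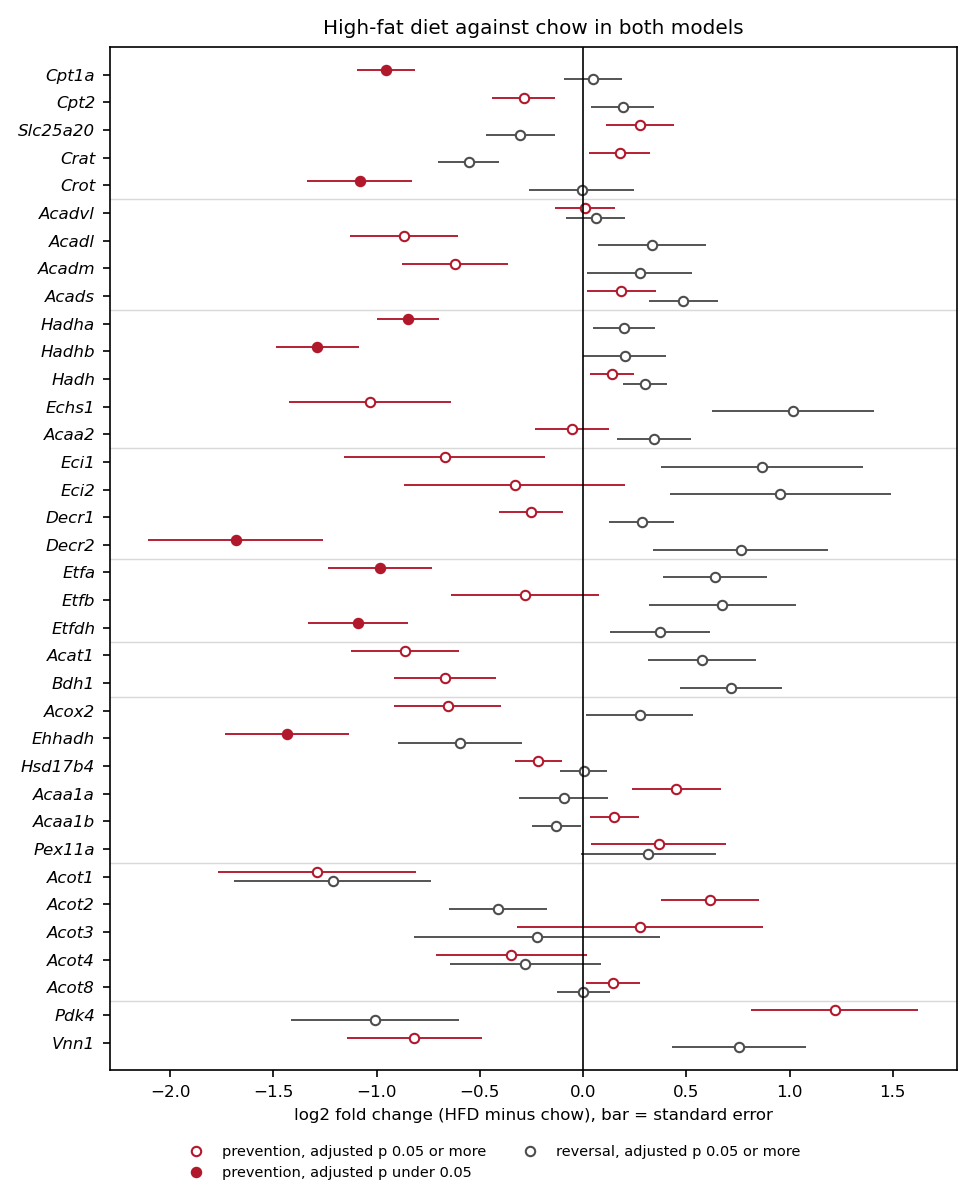
Log2 change with HFD (x axis, HFD minus chow) with its SE for the 36 genes (rows) in the prevention model (red) and the reversal model (grey); filled circles passed at an adjusted p under 0.05. The 8 filled circles are all in the prevention model and below 0, and 20 genes lie below 0 in prevention and above 0 in reversal.

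The HFD effect differed between the models for 12 of the 36 genes by a test of the difference itself (reversal minus prevention). Of these, 10 had a higher effect in reversal and 2 a lower one, while 8.84% of all genes were higher and 2.14% lower. The 10 were Hadhb, Cpt1a, Hadha, Etfa, Etfdh, Decr2, Bdh1, Acat1, Echs1 and Vnn1, and the 2 were Pdk4 and Crat. In Cpt1a the effects were -0.96 and 0.05, a difference of 1.00 ± 0.198 (SE, adjusted p = 0.0183). Pdk4 went the other way, from 1.22 to -1.01, a difference of -2.23 ± 0.573 (adjusted p = 0.0311). In all, 20 genes were below chow in prevention and above it in reversal, 7 the reverse, 4 below in both (Ehhadh, Crot, Acot1 and Acot4) and 5 above in both. Crot was at -0.01 in reversal, so its sign there carries no weight. Without reversal chow replicate 2 the difference passed for 9 genes, 7 higher and 2 lower. With the index as a covariate it passed for 0, with 11 at an unadjusted p under 0.05 in limma. Without the covariate 31% of all genes were at that level, and the share with it is not given here. The difference also passed for 0 without prevention chow replicate 1, without prevention chow replicate 3, or without reversal HFD replicate 1. It passed for 7 without prevention HFD replicate 1 and for 4 without prevention HFD replicate 3.

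Averaged over both models, HFD lowered 2 of the 36 genes, Ehhadh by 1.01 ± 0.212 (log2, SE; adjusted p = 0.0289) and Cpt1a by 0.45 ± 0.0989 (adjusted p = 0.0358). Of all genes, 1.72% changed, 0.348% lower and 1.37% higher. For Cpt1a the average joins a fall in 1 model and a value near 0 in the other. Acot1, at -1.25 on average, had an adjusted p of 0.0819 and was below chow in both models. Without prevention chow replicate 1 or 3, prevention HFD replicate 1, reversal chow replicate 1 or 3, or reversal HFD replicate 2, 0 genes passed; without reversal chow replicate 2, 4 did.

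CMPF changed 0 of the 36 genes on HFD in the prevention model in limma, as it changed 0% of all genes, and 2 of the 36 had an unadjusted p under 0.05, against 8.01% of all genes. The smallest adjusted p was 0.586. CMPF arrays lay above all HFD arrays for 12 genes and below for 8, against 19.7% and 11.1% of all genes. The 12 were Hsd17b4, Crot, Bdh1, Etfa, Hadhb, Hadha, Acadl, Ehhadh, Acox2, Acat1, Acadm and Decr2. This comparison uses the same HFD arrays as the comparison with chow, so a low HFD array enters both.

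Hsd17b4 had the smallest p. It read 11.17, 11.09 and 11.18 on HFD and 11.33, 11.56 and 11.59 with CMPF, a difference of 0.31 with a 95% interval of 0.03 to 0.58 (adjusted p = 0.586). Its chow arrays read 11.40, 11.35 and 11.33, within the range of the CMPF arrays. Crot read 12.01, 12.02 and 11.98 with CMPF, above every HFD array and below every chow array, a difference of 0.62 (95% interval 0.01 to 1.22, adjusted p = 0.621). Bdh1 read 11.01, 11.03 and 10.79 on HFD and 11.48, 11.44 and 11.37 with CMPF, a difference of 0.50 (95% interval -0.09 to 1.09, adjusted p = 0.705). Etfa read 11.37, 11.45 and 11.32 with CMPF, a difference of 0.48 (95% interval -0.12 to 1.08, adjusted p = 0.731). All 4 genes had CMPF arrays above HFD without passing the threshold.

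For Cpt1a the CMPF difference was 0.11 (95% interval -0.22 to 0.45), and for Cpt2, at 10.50, 10.55 and 10.51 with CMPF, it was 0.07 (-0.30 to 0.43). Hadhb was at 0.37 (-0.11 to 0.85) and Hadha at 0.27 (-0.09 to 0.63). Ehhadh read 11.62, 11.75 and 11.67 with CMPF, a difference of 0.48 (-0.23 to 1.20). Pdk4 read 6.52, 6.98 and 6.78, Acot1 9.68, 9.40 and 9.35, and Vnn1 10.64, 10.89 and 10.82 with CMPF. Their differences were -0.49 (-1.46 to 0.48), 0.70 (-0.45 to 1.85) and 0.15 (-0.63 to 0.92). The intervals leave room for changes of either sign in these genes.

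In the reversal model, CMPF again changed 0 of the 36 genes in limma, against 0.0378% of all genes (0.0151% higher and 0.0227% lower), and 3 had an unadjusted p under 0.05, all lower, against 4.79% of all genes. With CMPF, 28 of the 36 genes were below HFD, with a median difference of -0.18 against -0.01 over all genes. All 6 genes grouped as peroxisomal oxidation and all 5 genes of mitochondrial hydration, dehydrogenation and thiolysis were below HFD, by medians of -0.25 and -0.17. Some peroxisomal genes grouped by other roles were not below HFD, among them Eci2 at 0.04 and Acot8 at 0.01. Of the 5 thioesterase genes, 1 was below HFD. Acot3 and Acot4 had means of 7.62 and 6.44 on HFD and of 7.73 and 6.78 with CMPF. CMPF arrays lay below all HFD arrays for 6 genes (Vnn1, Acot2, Ehhadh, Hsd17b4, Hadh and Cpt2) and above for 0, against 5.03% and 3.79% of all genes.

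Vnn1 read 11.66, 11.68 and 11.46 on HFD and 10.73, 10.44 and 11.19 with CMPF, a difference of -0.81 (95% interval -1.51 to -0.12, adjusted p = 0.912). Its second probe set was at -0.97 in the same comparison, with an adjusted p of 0.725. Acot2 read 8.43, 8.43 and 9.03 on HFD and 7.91, 7.91 and 8.31 with CMPF, a difference of -0.59 (-1.09 to -0.08, adjusted p = 0.917). Ehhadh read 12.32, 11.60 and 11.78 on HFD and 11.16, 11.09 and 11.49 with CMPF, a difference of -0.66 (-1.30 to -0.01, adjusted p = 1). These 3 genes had every CMPF array below every HFD array, and none passed the threshold. Crot read 13.13, 12.77 and 12.11 on HFD and 12.21, 11.73 and 12.46 with CMPF, which overlapped, a difference of -0.53 (-1.08 to 0.01).

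Cpt1a read 11.39, 11.35 and 11.65 with CMPF in the reversal model, a difference from HFD of -0.02 (95% interval -0.32 to 0.28), and Cpt2 read 10.91, 10.69 and 10.85, a difference of -0.19 (-0.52 to 0.13). Hadhb read 11.24, 10.88 and 11.59 and Hadha 9.49, 9.20 and 9.80, both overlapping HFD. Pdk4 read 5.48, 6.31 and 5.74, a difference of -0.28 (-1.15 to 0.59), and Acot1 8.10, 8.46 and 9.52, a difference of 0.06 (-0.97 to 1.08). For Cpt1a the interval leaves out changes beyond 0.32 on the log2 scale in either direction, while those of Pdk4 and Acot1 are wider.

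**Figure D5:**
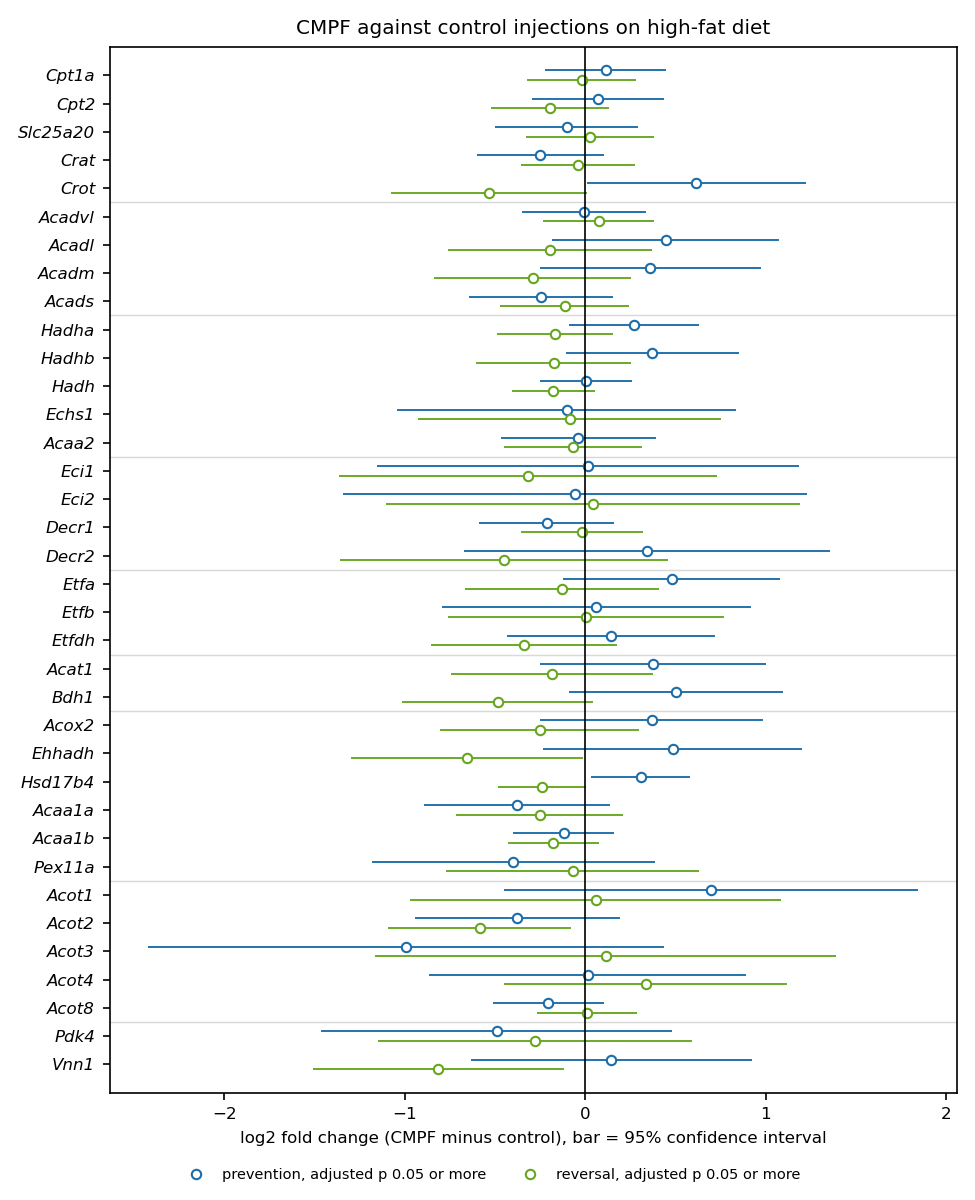
Log2 difference between CMPF and vehicle on HFD (x axis, CMPF minus control) with its 95% interval for the 36 genes (rows) in the prevention model (blue) and the reversal model (green); all circles are open because 0 genes passed at an adjusted p under 0.05. In reversal 28 of the 36 circles lie below 0, and in prevention 15 do.

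Averaged over both models, CMPF changed 0 of the 36 genes in limma and 0% of all genes, and 1 gene, Acot2 at -0.48, had an unadjusted p under 0.05, against 5.2% of all genes. The difference of the CMPF effect between the models also passed for 0 genes (0% of all genes), with 4 at an unadjusted p under 0.05 against 7.92% of all genes, all lower in reversal: Hsd17b4 at -0.55, Crot at -1.15, Bdh1 at -0.99 and Ehhadh at -1.14. The smallest adjusted p among them was 0.507.

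Against chow, the CMPF livers of the prevention model had 0 changed genes of the 36 in limma (0% of all genes), with 8 at an unadjusted p under 0.05, all lower, against 9.99% of all genes. CMPF arrays lay below all chow arrays for 21 genes, against 14.4% of all genes. The RNA index of the prevention CMPF group was 2.95 ± 0.285 (SD, n = 2), 1.53 above chow (exact permutation p = 0.2, two-sided, the smallest that 2 samples against 3 allow), and its part in these values was not tested. Cpt1a was at -0.84, Hadhb at -0.91 and Etfdh at -0.94 (log2, CMPF minus chow), with adjusted p of 0.222, 0.283 and 0.357. In the reversal model 2 genes were lower with CMPF on HFD than on chow, against 2% of all genes changed, 0.393% lower and 1.61% higher. CMPF arrays lay below all chow arrays for 6 genes, against 7.67% of all genes. Ehhadh was lower by 1.25 ± 0.300 on the log2 scale (adjusted p = 0.0483) and Acot2 by 1.00 ± 0.237 (adjusted p = 0.0475). The chow arrays of Acot2 read 9.08, 8.68 and 9.37, above all CMPF arrays. Without reversal chow replicate 2, Ehhadh was at -1.71 (adjusted p = 0.00105) and Acot2 at -1.18 (0.0422). Without reversal chow replicate 1 or 3, or any of the 3 reversal CMPF arrays, 0 of the 36 passed. The dim second probe set of Acot2 was at -0.15 here, with an adjusted p of 0.628.

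Genes around the pathway were taken from lists of uptake and activation, other mitochondrial and peroxisomal oxidation, other PPAR alpha targets and transcriptional control. Of 80 such genes, 69 were tested. In the prevention model HFD raised 3 and lowered 6 of the 69, against 1.74% higher and 3.83% lower of all genes, with a median of -0.15 against 0.00. Slc27a4, a fatty acid transporter, rose by 0.89 (adjusted p = 0.0121). The acyl-CoA dehydrogenase Acad11 fell by 0.79 and the epoxide hydrolase Ephx2 fell by 0.64 on the log2 scale (adjusted p = 0.0121 for each). Nudt7, a peroxisomal CoA hydrolase, fell by 0.78 (adjusted p = 0.0225). Of the 20 other peroxisomal genes tested, 4 fell and 0 rose. None of the 14 tested regulators, PPAR alpha and its partners among them, passed for HFD against chow or for CMPF against vehicle in either model. Among the regulators, the smallest adjusted p in the prevention HFD comparison was that of the receptor partner Rxra, at -0.35 (0.081). For the difference of the HFD effect between the models, 8 of the 69 passed with a higher effect in reversal and 0 with a lower one. Of all genes, 8.84% were higher and 2.14% lower. The smallest p were those of Acad11 (1.02) and Nudt7 (1.25), with adjusted p of 0.0181 each, and Acsl4 (1.87) and Acsm3 (2.24), with 0.025 each. Rxra was among the 8, at 0.58 (0.0365). Lpin1, a phosphatidate phosphatase and coactivator, was higher with CMPF on HFD than on chow in reversal, by 3.01 (adjusted p = 0.0229). For HFD against chow in the reversal model, Cd36, the fatty acid translocase, was the only one of the 69 to pass, with a rise of 3.23 (adjusted p = 0.00752). Cd36 also rose with HFD in prevention, by 2.25 (adjusted p = 0.0291). For the averaged HFD effect 2 of the 69 were higher and 1 lower, against 1.37% and 0.348% of all genes. Cd36 was at 2.74 (adjusted p = 0.00253), Slc27a4 at 0.55 (0.0195) and Ephx2 at -0.44 (0.0126). CMPF changed 0 of the 69 on HFD in either model in limma.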

How the data were processed

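RNA of 18 liver samples was measured on Affymetrix mouse arrays, with cRNA made from 200 ng of RNA per the labels. The deposited log2 signals came from the authors' run of RMA in Affymetrix Expression Console 1.1, per the submitters' processing notes. Of 45101 probe sets, 34945 had 1 gene symbol in the platform annotation. Probe sets in the dimmest 40% by mean were dropped (log2 signal under 4.01), and each gene was represented by its brightest probe set. Group differences were fitted in R 4.3.3 by limma 3.58.1, as 6 group means over 17 samples (11 residual degrees of freedom, prior 3.02), with Benjamini-Hochberg adjustment over 13228 genes and a threshold of 0.05. Index differences were compared by exact permutation in scipy 1.17.1. The steps were tested on simulated data. Arrays have no read depth, so the number of arrays limits the precision. The arrays had mean signals of 5.08 to 5.10 in the prevention model and 5.25 to 5.26 in the reversal model. Genes, lists and tests were chosen with earlier results of these data known. Values on every array are given for Cpt1a, Cpt2, Hadha, Hadhb, Ehhadh, Pdk4, Acot1 and Vnn1, for genes that passed in HFD against chow or CMPF against vehicle, and for the 4 of smallest p in each. Of other pathway genes, up to 4 that passed, by smallest p, are named per comparison. Cd36 for HFD in prevention and Rxra for the difference of the HFD effect are named besides. Alternatives were the normalization, filter, probe set choice, samples in the fit, prior, array weights, index covariate, replicate block and left-out arrays.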

Additional observations from a re-analysis of the deposited data

Results flagged for a closer look

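For 12 of the 36 genes the effect of HFD differed between the reversal and the prevention model, by an interaction test in limma (difference in log2, reversal minus prevention, with SE and adjusted p). In the matrix enzymes it was 1.49 ± 0.283 for Hadhb (0.0183), 1.05 ± 0.213 for Hadha (0.0196) and 2.05 ± 0.554 for Echs1 (0.0351). In the carnitine enzymes it was 1.005 ± 0.198 for Cpt1a (0.0183) and -0.73 ± 0.208 for Crat (0.0405). For electron transfer it was 1.62 ± 0.354 for Etfa (0.0234) and 1.46 ± 0.340 for Etfdh (0.0263), and for the reductase Decr2 2.44 ± 0.598 (0.028). The ketone body genes were at 1.39 ± 0.349 for Bdh1 (0.03) and 1.44 ± 0.370 for Acat1 (0.0311). Pdk4 was at -2.23 ± 0.573 (0.0311) and Vnn1 at 1.57 ± 0.459 (0.0438). The models differ in their chow arrays, in feeding time, in the weeks of injection and their order relative to HFD, and in mean array signal. These differences go together in this design, and the part of each was not tested. Groups of 3 arrays are too small for a test of single outlying arrays.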

How the results depend on the processing

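In the alternative runs with 1 value per gene, the direction of no gene that passed was reversed. With each probe set fitted by itself, a dimmer probe set of Hadhb went the other way in prevention, as given above. The counts of genes that passed, of 36, moved as follows. With all 18 arrays as separate samples, 1 passed for HFD in reversal and 1 for CMPF against chow in prevention. For HFD in reversal 1 also passed with averaged probe sets and with quantile normalization. For CMPF on HFD against chow in reversal 4 passed with quantile normalization, 1 with unique probe set names, with a robust prior and with the index as a covariate, and 0 without a filter, with median centring, with only the arrays of the model or only the 2 groups, and without the reversal HFD and CMPF arrays of lowest index. Median centring left 1 for the averaged HFD effect. For HFD in prevention 17 passed with only the arrays of that model. With array weights 15 passed for HFD in prevention, 2 in reversal, 4 and 6 for CMPF against chow in prevention and reversal, and 5 for the averaged HFD effect. The share of all genes that passed in each alternative run, those with a block or a left-out array included, is not given here. A higher count in a run therefore does not set these genes apart from all genes. With the index as a covariate 0 passed for HFD in prevention and 0 for the difference of the HFD effect. Without the 2 prevention chow arrays of lowest index, which leaves 1 chow array and so says nothing about stability, 0 passed for HFD in prevention, for the averaged HFD effect and for the difference, and without the reversal HFD and CMPF arrays of lowest index 3 passed for the difference. These last 2 alternatives, and fitting each probe set by itself, were chosen after seeing the data.

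Leaving out 1 array at a time gave 0 to 9 for HFD in prevention, 0 to 1 in reversal, 0 to 2 for CMPF against chow in reversal, 0 to 4 for the averaged HFD effect and 0 to 15 for the difference. The counts for CMPF against vehicle stayed at 0 in each model under every alternative run. With the replicate number as a block, 12 passed for HFD in prevention, 14 for the difference and 3 for the averaged HFD effect; the replicate block ended the calls of Cpt1a on average and of Crat for the difference, and no other. With the group means taken off, same-numbered arrays of different groups correlated from -0.344 to 0.442 in prevention and from -0.161 to 0.393 in reversal. Arrays with different numbers correlated from -0.384 to 0.395 and from -0.481 to 0.566. With so few arrays per group, these values do not settle whether the numbers pair the arrays. Groups of 3 arrays (2 samples for prevention CMPF), the index that moves with prevention chow, and 1 chow array that stands apart in reversal limit these results. The causes of the moves were not tested.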
